A study of Mus musculus with 11 samples.

Results

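The genes described here are 9 adhesion receptor genes of T cells, Itga4, Itgb1, Itgal, Itgb2, Itgae, Itgb7, Itga1, Itga2 and Cd44, taken by gene symbol from the 54532 genes of the counts table. Each symbol stood on 1 Ensembl identifier, and all 9 genes passed the filter on low counts. The cells, CD8+ Tregs, were sorted as CD8+CD44+Ly49+CD122+ from the spleens of wild-type C57BL/6J mice, with no treatment and no engineered allele in either age group. Young mice were 2 to 3 months old (3 male and 3 female libraries), and the older mice were 10 to 12 months old (2 male and 3 female libraries). The labels call the older group old, and the study's term, middle-aged, is used here. Libraries carry a replicate number from 1 to 3 within their sex and age group, and middle-aged males have numbers 1 and 2. Neither the labels nor the methods say whether a library came from 1 mouse or from pooled mice, nor that libraries of the same number were handled together.

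Integrins are heterodimers of an α and a β chain that bind matrix proteins and receptors on other cells, and neither chain reaches the cell surface in quantity without a partner. The β1 chain (Itgb1, CD29) pairs with α1 (Itga1, CD49a) and α2 (Itga2, CD49b) into collagen receptors and with α4 (Itga4, CD49d) into VLA-4, which binds VCAM-1 and fibronectin. The β7 chain (Itgb7) pairs with α4 into the gut homing receptor for MAdCAM-1 and with αE (Itgae, CD103) into the receptor for E-cadherin on epithelium. The αL chain (Itgal, CD11a) and the β2 chain (Itgb2, CD18) form LFA-1, which binds ICAMs and stabilises contact with other cells. CD44 binds hyaluronan and is a lasting mark of T cells that have responded to antigen or cytokine. CD44 protein was part of the sort, so the presence of its transcript is no finding, and surface CD49d is the usual means of telling antigen-experienced CD8+ T cells from virtual memory cells.

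The α4 chain can be shared by β1 and β7, and the transcripts of these β chains differed most clearly in their balance between age groups, so the 250 bases before the RefSeq start of these 3 genes are shown. The RefSeq start of Itgb7 lies inside the gene as the counts table places it, so the last 9 bases of its window fall within that gene. They are from RefSeq on GRCm38.p6, written 5′ to 3′ on the strand of the gene, with Itga4 at chr2:79255176-79255425 (plus strand), Itgb1 at chr8:128685404-128685653 (plus strand) and Itgb7 at chr15:102231936-102232185 (minus strand). Capitals mark matches on either strand to the RUNX core TGTGGT, the T-box element GGTGTGA and the GC box GGGCGG, which do not overlap each other here.
Itga4: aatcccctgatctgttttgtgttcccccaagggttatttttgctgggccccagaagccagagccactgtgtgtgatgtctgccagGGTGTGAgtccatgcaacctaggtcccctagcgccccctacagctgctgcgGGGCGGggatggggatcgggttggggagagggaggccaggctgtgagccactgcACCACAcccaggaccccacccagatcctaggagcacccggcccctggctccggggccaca
Itgb1: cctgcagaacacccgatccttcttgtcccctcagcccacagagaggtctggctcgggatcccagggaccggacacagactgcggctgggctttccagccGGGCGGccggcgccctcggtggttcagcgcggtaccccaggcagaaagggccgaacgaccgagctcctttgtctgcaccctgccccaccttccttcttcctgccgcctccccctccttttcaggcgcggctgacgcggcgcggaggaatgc
Itgb7: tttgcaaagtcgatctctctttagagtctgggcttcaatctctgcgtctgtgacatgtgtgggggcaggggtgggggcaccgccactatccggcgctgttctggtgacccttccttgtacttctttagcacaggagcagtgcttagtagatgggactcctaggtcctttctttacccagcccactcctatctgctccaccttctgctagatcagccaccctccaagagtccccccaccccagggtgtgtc
The Itga4 sequence held 1 match to each motif, that of Itgb1 held 1 GC box, and that of Itgb7 held none. Among all 32851 promoters of the table, 14.0% held the RUNX core, 3.33% the T-box element and 32.7% the GC box in this window. GC content was 64% for Itga4, 68% for Itgb1 and 56% for Itgb7, against a median of 52.4% over all promoters. Of the 9 genes, 6 were in this table. The windows of Itga1, Itga2 and Cd44 held no match, and those of Itgal, Itgb2 and Itgae were not analysed here. A match or its lack is a description of these letters and says nothing of binding.

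Total counts ranged from 6135736 to 24394532 per library. A count of 0 allows up to 3 counts, which is 0.119 to 0.542 CPM by library (CPM, counts scaled to library size with TMM factors). Between ages, the test across all 13129 genes called 3 genes (0.0229%) in edgeR, and the median log2 fold change of all genes was 0.0028. Libraries also differed by replicate number. Those numbered 1 had relatively fewer counts on long genes (slope of log2 CPM on log2 gene length between -0.26 and -0.09 in 4 libraries), and those numbered 3 had more (0.16 to 0.18 in 3 libraries). Values within each number are therefore given beside the pooled ones. Number 1 was itself uneven between ages. Its young libraries had 6135736 and 8421396 counts, and its middle-aged libraries 23113240 and 20304535. Their slopes were -0.21 and -0.26 in young and -0.18 and -0.09 in middle-aged libraries. The 6 markers of the sorted cells (Cd3e, Cd3g, Cd8a, Cd8b1, Il2rb and Ikzf2) summed to 5815 to 8399 CPM in the young libraries and 5748 to 8531 CPM in middle-aged libraries, so the markers of the labelled cell type were present at similar levels at both ages.

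Expressed per kilobase of gene length, the partner chains of the 9 genes differed widely in abundance. The β2 and β7 chains led, with a mean over the 11 libraries of 287 CPM per kb for Itgb2 and 264 for Itgb7. Itgb2 stood above Itgb7 in 6 of 11 libraries, so their order was not resolved. Itgb1 followed at 103 CPM per kb, below Itgb7 in 11 of 11 libraries. Itgal had 80.7 CPM per kb and stood below Itgb1 in 7 of 11 libraries, which were 2 of 6 young and 5 of 5 middle-aged libraries. Cd44 came next at 17.9 CPM per kb, below Itgal and above each of the remaining α chains in every library. Itgae had 4.26 CPM per kb and Itga4 had 2.48, with Itgae above in 9 of 11 libraries. Itga2 had 1.41 CPM per kb, below Itga4 in 8 of 11 libraries, and Itga1 was lowest at 0.301, below Itga2 in 11 of 11. The α chains that pair with β1 and β7 were thus all far below their β partners in transcript level, whereas αL and β2 were closer. Gene lengths here are unions of exons, and Itga1 (18599 bases) and Itga4 (13978 bases) are longer than 99.2% and 97.2% of tested genes.

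**Figure D1:**
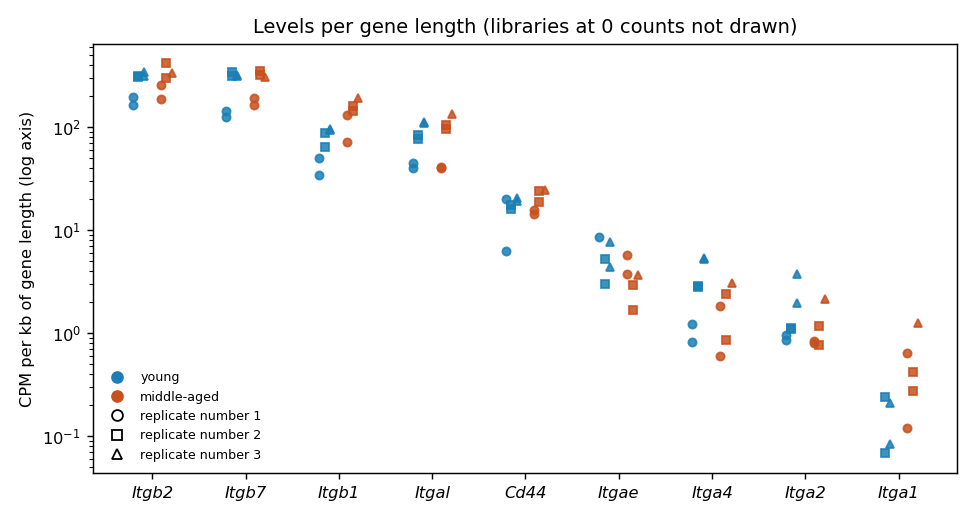
Level of each of the 9 genes per kilobase of gene length (CPM per kb, log axis) in the 11 libraries, coloured by age with the marker shape giving the replicate number; libraries with 0 counts are not drawn. Itgb2 and Itgb7 stood highest, with means of 287 and 264 CPM per kb, and Itga1 lowest, with 0.301.

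None of the 9 genes reached an adjusted p under 0.05 between ages in edgeR's quasi-likelihood test (0 of 9, against 0.0229% of all genes). None did in DESeq2 (0.853% of all genes) or limma voom (1.04%). At an unadjusted p under 0.05, 2 of 9 were found (against 2.99% of all genes), Itgb1 and Itga1, both with a higher level in middle-aged libraries. Fold changes were positive for 6 genes and negative for 3, with a median of 0.06, while 50.4% of all genes had a positive value.

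Itgb1, the β1 chain (chr8:128685654-128733200), had the most regular difference. Young males had 141, 360 and 385 CPM and young females 207, 262 and 389 CPM. Middle-aged males had 296 and 658 CPM and middle-aged females 540, 594 and 790 CPM. The groups overlapped only through middle-aged male 1, since the other middle-aged libraries all lay above the highest young library. The mean was 291 ± 104 CPM in young (SD, n = 6) and 576 ± 182 CPM in middle-aged libraries (SD, n = 5), a log2 fold change of 0.96 (SE 0.33, edgeR adjusted p = 0.974, unadjusted p = 0.0126). An exact permutation test of this gene alone over every assignment of the libraries to 6 and 5, 2-sided, gave p = 0.0195, where the smallest p possible is 0.00216. Within replicate numbers the mean CPM of middle-aged libraries was 2.40, 2.01 and 2.04 times that of young libraries for numbers 1, 2 and 3. The only middle-aged library of number 3 was middle-aged female 3. In each number the lowest middle-aged library exceeded the highest young one, a pattern that 4.17% of all genes showed. With each library's gene length slope in the model the log2 fold change was 0.91 (SE 0.15) and edgeR's adjusted p was 0.0342, where 0.251% of all genes were called as higher and 0.0914% as lower. This was the only one of 28 fits that called Itgb1. The adjusted p ranged up to 1.00, and the value was positive in 28 of 28 fits (0.69 to 1.17). The lowest value, 0.69, came from the libraries over 10000000 counts, without young male 1 and young female 1 (edgeR adjusted p = 0.776).

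Itga1, the α1 chain of the collagen receptor VLA-1 (chr13:114953096-115101964), was rare in every library. Its counts were 0, 27 and 33 in young males and 0, 112 and 68 in young females. They were 47 and 133 in middle-aged males and 224, 122 and 492 in middle-aged females. In CPM, young libraries ranged from 0 to 4.45 and middle-aged libraries from 2.23 to 23.3. The groups overlapped, with young females 2 and 3 above middle-aged male 1. The mean was 1.87 ± 1.91 CPM in young (SD, n = 6) and 10.1 ± 8.21 CPM in middle-aged libraries (SD, n = 5). The log2 fold change was 2.27 (SE 0.92, edgeR adjusted p = 1.00, unadjusted p = 0.0295), and the exact permutation test gave p = 0.0260. Both young libraries numbered 1 had 0 counts, with floors of 0.542 and 0.416 CPM, so the size of the fold depends on the prior count. The middle-aged mean was 2.26 times the young mean in number 2. In number 3 the only middle-aged library, middle-aged female 3, had 8.50 times the young mean. All middle-aged libraries lay above the young ones in each of the 3 numbers, as for 4.17% of all genes. The direction held in 27 of 27 fits (1.74 to 3.08).

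Itga2, the α2 chain and carrier of the DX5 epitope used to stain NK cells (chr13:114833081-114932100), lies next to Itga1 on the same strand. It had 6.86, 7.78 and 14.1 CPM in young males and 6.11, 8.02 and 26.9 CPM in young females. Middle-aged males had 5.74 and 8.31 CPM and middle-aged females 6.03, 5.47 and 15.2 CPM. The highest library of either age was the female numbered 3, and the groups overlapped. The log2 fold change was -0.55 (SE 0.48, exact permutation p = 0.379) and was -0.06 without young female 3, so its size rested on that library.

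**Figure D2:**
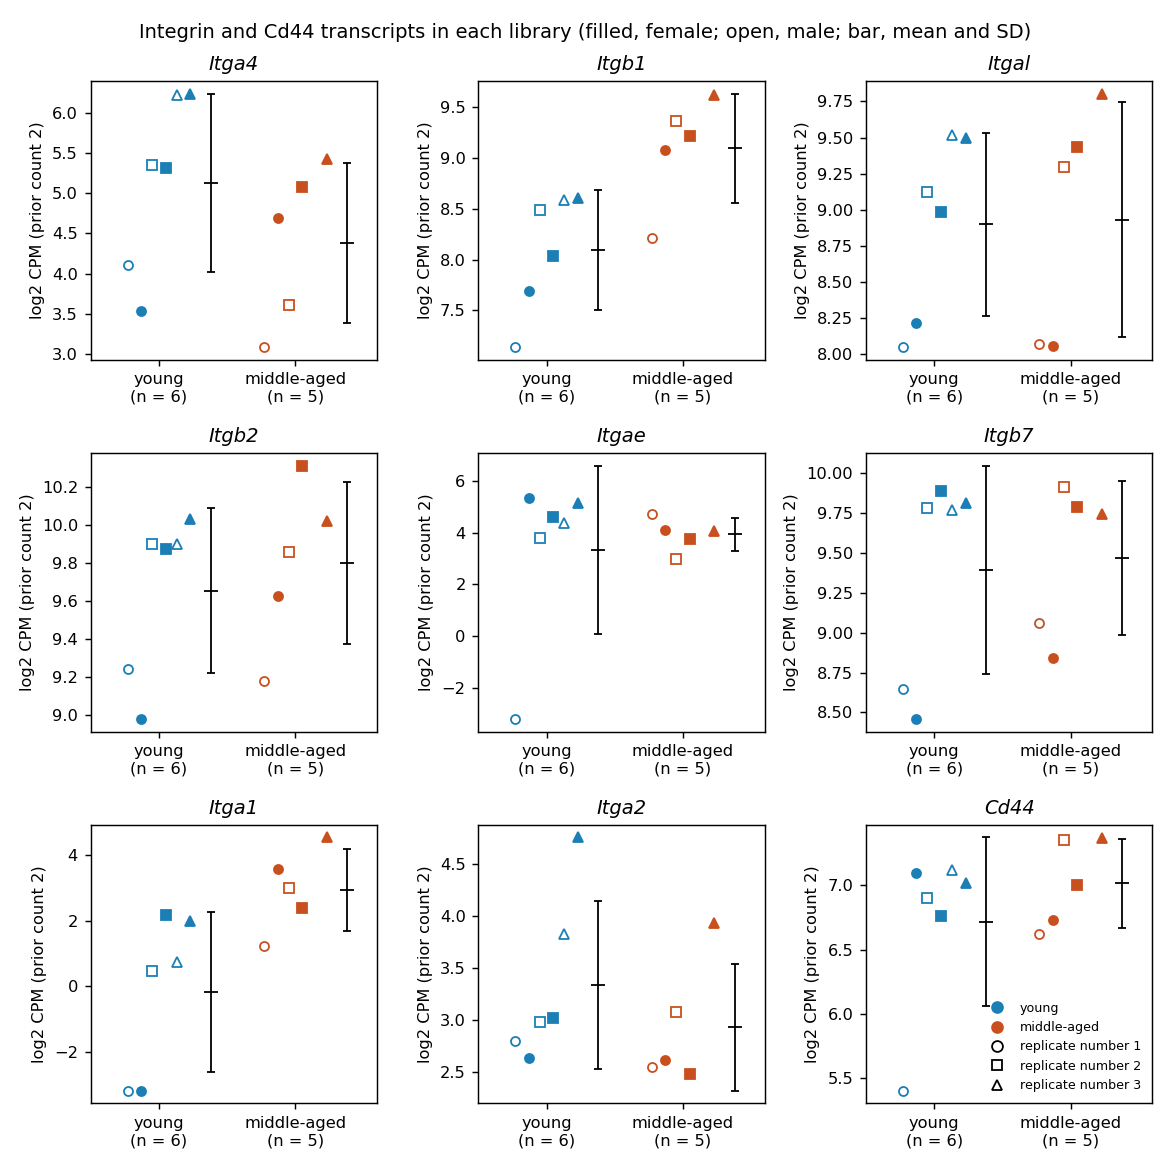
Level of each of the 9 genes in each library on the log2 CPM scale (prior count 2), by age group, with females filled, males open, the marker shape giving the replicate number and bars the mean and SD. Itgb1 was higher in middle-aged libraries in each number, while the libraries numbered 1 were lowest for Itgal, Itgb2 and Itgb7 at both ages.

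Itga4, the α4 chain (chr2:79255426-79333123), had 17.2, 40.6 and 74.2 CPM in young males and 11.5, 39.6 and 75.2 CPM in young females. Middle-aged males had 8.40 and 12.1 CPM and middle-aged females 25.8, 33.7 and 42.7 CPM. In young mice of either sex the library numbered 1 was the lowest and that numbered 3 the highest. The mean was 43.0 ± 27.2 CPM in young (SD, n = 6) and 24.6 ± 14.4 CPM in middle-aged libraries (SD, n = 5), with a log2 fold change of -1.06 (SE 0.57, edgeR adjusted p = 1.00, unadjusted p = 0.0870, exact permutation p = 0.268). Within number 1 the groups overlapped, and the middle-aged mean was 1.19 times the young mean, the other direction. In numbers 2 and 3 the middle-aged mean was 0.572 times the young mean with no overlap. Numbers 2 and 3 hold only 4 and 3 libraries, and the share of all genes with this pattern was not counted. The log2 fold change was -2.10 in males and -0.30 in females, and this difference between the sexes did not pass the test (interaction 1.79, SE 0.99, unadjusted p = 0.0989 in edgeR). Exons of Itga4 share 1124 bases with Cerkl on the opposite strand, which had at most 138 counts in a library. Whether strand was used in counting is not given in the sources used here, so reads in these bases could not be assigned with certainty.

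Itgb7, the β7 chain (chr15:102215995-102231944), had 401, 882 and 872 CPM in young males and 352, 951 and 900 CPM in young females. Middle-aged males had 533 and 966 CPM and middle-aged females 458, 885 and 857 CPM. The 4 libraries numbered 1 were the lowest of the 11, and the rest lay close together at either age. The log2 fold change was 0.03 (SE 0.33, exact permutation p = 0.799), and within numbers mean log2 CPM differed by 0.40, 0.01 and -0.05.

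Itgae, the αE chain (chr11:73090583-73147446), ranged widely among the young libraries. It had 0, 13.8 and 20.4 CPM in young males and 39.8, 24.3 and 35.4 CPM in young females, and 26.2 and 7.78 CPM in middle-aged males and 17.1, 13.4 and 16.8 CPM in middle-aged females. In females all 3 young libraries lay above all 3 middle-aged libraries, whereas the males overlapped. The share of all genes separated in this way in females was not counted. The mean was 22.3 ± 14.5 CPM in young (SD, n = 6) and 16.2 ± 6.69 CPM in middle-aged libraries (SD, n = 5), with a log2 fold change of -0.33 (SE 0.77, exact permutation p = 0.970). The mean log2 CPM differed in the other direction (0.58), because young male 1 had 0 counts. Without the 4 libraries numbered 1, an analysis added after the values were seen, the log2 fold change was -1.04 (edgeR adjusted p = 0.464). In that fit 0 of 9 genes were called, against 0.022% of all genes.

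Because the pool of β1 and β7 transcripts can be compared within a library without scaling, the ratios of chains that share or form a receptor were tested. Counts of Itgb7 were 2.84, 2.45 and 2.26 times those of Itgb1 in young males and 1.70, 3.63 and 2.31 times in young females. The ratio was 1.80 and 1.47 in middle-aged males and 0.849, 1.49 and 1.09 in middle-aged females. Only young female 1 (1.70) lay below a middle-aged library (middle-aged male 1), and the other 5 young libraries lay above all 5 middle-aged ones. On the log2 scale the mean was 1.30 ± 0.36 in young (SD, n = 6) and 0.37 ± 0.43 in middle-aged libraries (SD, n = 5), a difference of -0.93. The exact permutation test, 2-sided, gave p = 0.00649, and 0.0195 after adjustment over the 3 ratios tested. The difference was -0.83, -1.01 and -1.08 within numbers 1, 2 and 3, -0.62 in males and -1.13 in females. The counts of the β chains that pair with α4 thus lay closer to parity in middle-aged libraries. These ratios are not corrected for gene length, and per kilobase Itgb7 stood above Itgb1 in 11 of 11 libraries. The log2 fold changes of the separate genes, given above, were 0.96 for Itgb1 and 0.03 for Itgb7.

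The other ratios showed no such separation. The log2 ratio of Itgae to Itga4, the α partners of β7, was -1.83 ± 3.10 in young (SD, n = 6) and -0.46 ± 1.22 in middle-aged libraries (SD, n = 5), with an exact permutation p of 0.390 (0.584 adjusted). Its spread came from young male 1, which had 0 counts of Itgae, and without it the difference of 1.38 became 0.23. The log2 ratio of Itgal to Itgb2, the chains of LFA-1, was -0.76 ± 0.28 in young (SD, n = 6) and -0.87 ± 0.52 in middle-aged libraries (SD, n = 5), with an exact permutation p of 0.649 before and after adjustment.

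**Figure D3:**
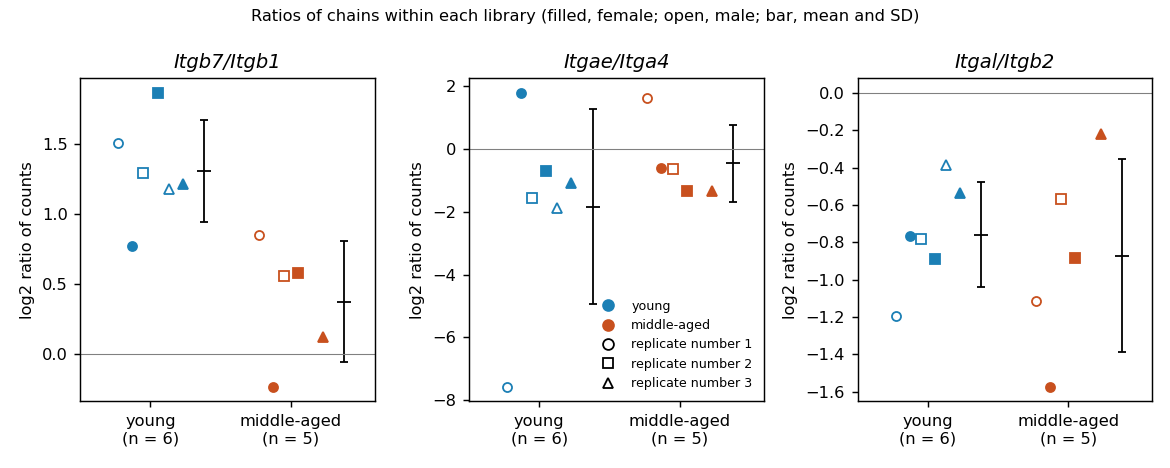
Log2 ratio of counts within each library for chains that share a partner (Itgb7 to Itgb1, Itgae to Itga4) or form a heterodimer (Itgal to Itgb2), by age group, with females filled, males open and bars the mean and SD. The ratio of Itgb7 to Itgb1 fell from a mean of 1.30 in young to 0.37 in middle-aged libraries, where young female 1 lay below middle-aged male 1, and the other ratios overlapped more widely.

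The chains of LFA-1 were abundant at both ages. Itgal (chr7:127296260-127335138) had 265, 556 and 734 CPM in young males, 297, 507 and 724 CPM in young females, 269 and 627 CPM in middle-aged males and 266, 691 and 894 CPM in middle-aged females. All libraries numbered 1 lay below those numbered 2, and these below those numbered 3. Within number 1 the age groups overlapped, and in numbers 2 and 3 the middle-aged libraries lay above the young ones. The share of all genes with this pattern was not counted. The log2 fold change was 0.06 (SE 0.40, exact permutation p = 0.922), and its sign changed with the method. Itgb2 (chr10:77530252-77565708) had 606, 955 and 958 CPM in young males, 505, 938 and 1049 CPM in young females, 580 and 930 CPM in middle-aged males and 792, 1273 and 1038 CPM in middle-aged females. Its log2 fold change was 0.11 (SE 0.27, exact permutation p = 0.591) and was -0.0045 without middle-aged female 2, the library with the highest value.

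Cd44 (chr2:102811141-102901665) had 42.3, 119 and 139 CPM in young males and 136, 108 and 130 CPM in young females. Middle-aged males had 98.3 and 164 CPM and middle-aged females 106, 128 and 165 CPM. The groups overlapped, but young male 1 lay below every other library. Middle-aged male 2 and middle-aged female 3 lay above every young library. The mean was 113 ± 36.3 CPM in young (SD, n = 6) and 132 ± 31.4 CPM in middle-aged libraries (SD, n = 5), with a log2 fold change of 0.22 (SE 0.30, exact permutation p = 0.491). Without young male 1 the log2 fold change was 0.06. The annotation gives Cd44 9 transcripts, and the gene counts do not separate isoforms with and without the variable exons.

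**Figure D4:**
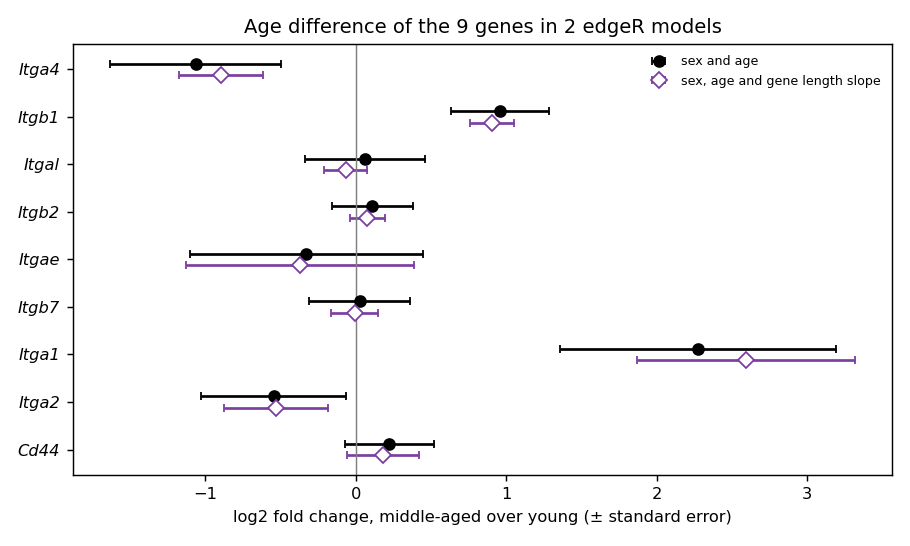
Log2 fold change of each gene, middle-aged over young, with its standard error, in the edgeR model with sex and age (filled circles) and with the gene length slope of each library added (open diamonds). Itgb1 had 0.96 and 0.91 in these models, and the standard error fell from 0.33 to 0.15.

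More of the 9 genes differed by replicate number than by age. With age and sex in the model, 6 of 9 genes had an adjusted p under 0.05 by replicate number (Itga4, Itgb1, Itgal, Itgb2, Itgb7 and Itga2), against 26.3% of all genes, in a test added after the values were seen. All 9 had a higher fitted level in number 3 than in number 1, though for Itgae the log2 difference was only 0.03. The share of all genes with this direction alone was not counted, so the 9 of 9 has no background to stand against. The 6 called genes were all higher in number 3 than in number 1, and 12.4% of all genes were called with this direction. The mean of Itgal was 274 CPM in libraries numbered 1, 595 in number 2 and 784 in number 3 (edgeR adjusted p = 0.000158), and that of Itga4 was 15.7, 31.5 and 64.0 CPM (edgeR adjusted p = 0.0377). Itgae, Itga1 and Cd44 did not pass this test (adjusted p = 0.871, 0.258 and 0.275 in edgeR). Age differences within a number were steadiest for Itgb1 (1.23, 1.03 and 1.03 on the log2 CPM scale). Those of Cd44 were 0.43, 0.35 and 0.30, but in number 1 its groups overlapped. There young male 1 (42.3 CPM) lay below and young female 1 (136 CPM) above both middle-aged libraries (98.3 and 106 CPM). The part of the number effect in the pooled age differences was not tested beyond these values.

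**Figure D5:**
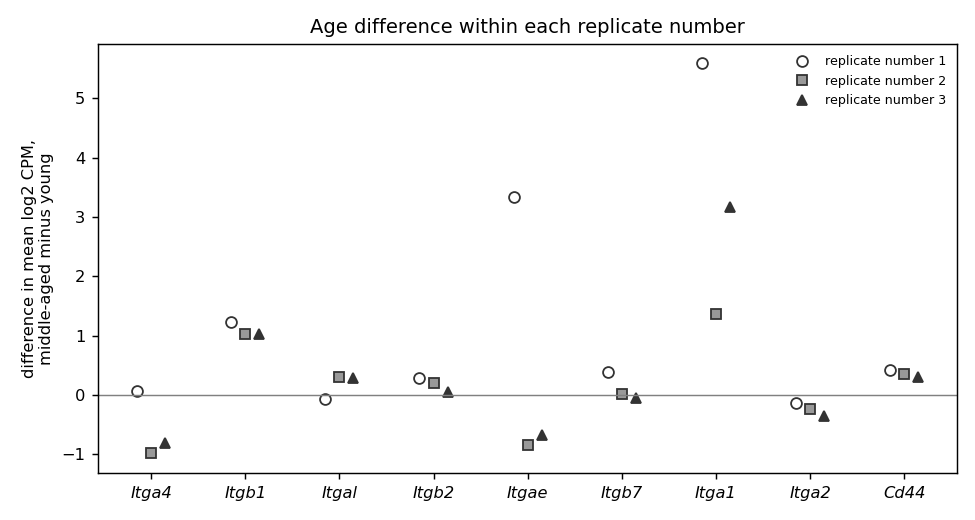
Difference in mean log2 CPM between middle-aged and young libraries (prior count 2) within replicate numbers 1, 2 and 3 for each gene. The 3 values were above 1 for Itgb1. Those of Cd44 were close to each other, although in number 1 young male 1 lay below and young female 1 above both middle-aged libraries. Values of Itgae and Itga1 in number 1 include young libraries with 0 counts and depend on the prior count.

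Sex made no detectable difference. None of the 9 genes passed the test between sexes (0 of 9, against 0.0381% of all genes, and 0 with an unadjusted p under 0.05, against 0.754% of all genes in edgeR), and none passed for age by sex (0 with an unadjusted p under 0.05, against 1.20%). With 2 middle-aged males the test of the interaction has little precision, as the SE of 0.99 for Itga4 shows.

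Across the 11 libraries, 2 of the 6 heterodimer pairs varied together after adjustment over the 6. For Itga1 and Itgb1, Pearson's r of log2 CPM was 0.88 (permutation p = 0.00017, adjusted 0.00102) and Spearman's rho 0.85 (adjusted permutation p = 0.00792). It was 0.74 without young male 1 and young female 1, and 0.84 on deviations from the means of the replicate numbers. For Itgal and Itgb2, r was 0.86 (permutation p = 0.00103, adjusted 0.00309) and rho 0.81 (adjusted permutation p = 0.0127), and r was 0.90 without the 2 libraries farthest from the median of Itgal. On deviations from the number means this r was 0.22, so the shared variation of the LFA-1 chains lay mostly between replicate numbers. For the remaining pairs r was between 0.26 and 0.61, and none passed adjustment by the permutation test. The points share libraries and their gene length slope.

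The genes most like each member in log2 CPM over the 11 libraries, among about 8330 genes with a mean of at least 10 CPM, had high correlations throughout. They were Plek (r = 0.96), Rnf157 (0.94) and F2r (0.92) for Itgb1 and Pip4p2 (0.96), App (0.95) and Tmem123 (0.95) for Itga1. For Itga4 they were Slc28a2 (0.94), Lrmp (0.93) and Ikbke (0.92), and for Itgb7 Sec31a (0.99), Arf3 (0.99) and Irf2bpl (0.98). For Itgal they were Fkbp15 (0.99), Iqgap1 (0.98) and Atg2a (0.98), and for Itgb2 Actn4 (0.98), Fgl2 (0.97) and Chuk (0.97). Itgae was matched by Tmem161b (0.98), Mr1 (0.98) and Gse1 (0.98), Itga2 by Dennd4c (0.93), Arhgef18 (0.91) and Shprh (0.90) and Cd44 by Rai1 (0.97), Mgat4a (0.97) and Tsc1 (0.96). These are the highest of many values and carry no test.

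Of 18 other integrin subunit genes, 11 were tested and none passed, with or without adjustment, with a positive fold change in 4, a negative one in 7 and a median of -0.29. The most abundant per length were Itga6, the laminin receptor chain (45.2 CPM in the young libraries and 37.2 in middle-aged libraries), and Itgax, the CD11c chain that pairs with β2 (18.5 and 13.0 CPM). Of 40 genes that activate integrins or link them to actin, 33 were tested, 0 passed after adjustment and 2 had an unadjusted p under 0.05, both lower in middle-aged libraries (against 0.99% of all genes lower). These were Actn1, the actin crosslinker α-actinin (71.7 ± 30.3 against 34.3 ± 16.3 CPM, log2 fold change -1.06, SE 0.41, unadjusted p = 0.0227), and Rasgrp2, the exchange factor that loads Rap1 upstream of integrin activation. Rasgrp2 had 343 ± 39.2 CPM in the young libraries and 256 ± 25.0 CPM in middle-aged libraries (log2 fold change -0.42, SE 0.18, unadjusted p = 0.0366 in edgeR), and its groups did not overlap, as for 1.31% of all genes. The median of the 33 was 0.01, and 22 of them differed by replicate number, against 26.3% of all genes.

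Of 16 partners, shedding enzymes and splicing factors of CD44, 14 were tested, and 1 had an unadjusted p under 0.05, higher in middle-aged libraries (against 2% of all genes higher). This was Mmp9, a gelatinase that binds CD44, with 1.13 ± 1.27 CPM in the young libraries and 18.8 ± 35.1 CPM in middle-aged libraries (log2 fold change 3.30, SE 1.45, unadjusted p = 0.0425), where 1 middle-aged library reached 81.4 CPM. The median of this list was 0.04, with 9 positive and 5 negative values. Of 19 genes for ligands of the 9 receptors, 7 were tested, with a median of 0.34, 5 positive and 2 negative values and no adjusted call. In this list 1 gene had an unadjusted p under 0.05 (against 2% of all genes higher). Cdh1, which encodes the E-cadherin bound by αEβ7, had 2.24 ± 2.15 CPM in the young libraries and 10.7 ± 6.57 CPM in middle-aged libraries (log2 fold change 2.22, SE 0.94, unadjusted p = 0.0351 in edgeR). Its middle-aged libraries lay above the young ones within each replicate number, as for 4.17% of all genes. Fn1, the fibronectin gene, was called in DESeq2 (adjusted p = 0.0419), with 1 middle-aged library at 11.8 CPM, and not in edgeR (unadjusted p = 0.0923).

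Several of these transcripts are also made by other cells of the spleen, and in bulk RNA fewer cells of a type cannot be told apart from less RNA per cell. No gene of the marker lists used was at 0 in every library. Marker genes of NK cells (9 genes) summed to 762 to 1314 CPM in the young libraries and 383 to 1133 CPM in middle-aged libraries, a log2 difference of -0.80 (exact permutation p = 0.0325). The study reports that genes of NK cells changed with age in the sorted cells themselves, some upward and some downward. This sum therefore cannot tell NK cells from sorted cells. Markers of erythroid cells and platelets (8 genes) summed to 24.7 to 133 CPM in the young libraries and 0.760 to 27.2 CPM in middle-aged libraries (exact permutation p = 0.00866). Platelets also express Itga2 and Itgb1, and NK cells Itga1, Itga2 and Itgb2. The NK cell sum and the erythroid and platelet sum were thus lower in middle-aged libraries, whereas the myeloid and plasma cell sums were higher. Myeloid markers (9 genes) summed to 40.9 to 259 CPM in young and 153 to 2660 CPM in middle-aged libraries, a log2 difference of 1.72 (exact permutation p = 0.0519). The highest sum was in middle-aged female 2, against 342 CPM in the next middle-aged library, and without it the middle-aged median was 178 CPM, against a young median of 112 CPM. Middle-aged female 2 also had the highest Itgb2. Plasma cell markers (6 genes) summed to 98.6 to 133 CPM in the young libraries and 117 to 368 CPM in middle-aged libraries (exact permutation p = 0.0152). B cell, dendritic cell and CD4 T cell markers gave log2 differences of 0.19, -0.09 and -0.15 (exact permutation p = 0.647, 0.805 and 0.494). None of these p values was adjusted for the number of sums. Without middle-aged female 2 the log2 fold change of Itgb1 was 0.96 and that of Itga1 was 2.47. The part of other cells in the age differences of the 9 genes was not tested.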

How the data were processed

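RNA of the sorted cells was isolated with the Quick-RNA MiniPrep (Zymo Research), and libraries were made with a SMARTer kit for low input. The authors deposited raw counts, whole numbers per Ensembl gene at GRCm38 coordinates, without normalization. The submitters' processing notes name kallisto and mm10, and their versions and the use of strand are not given in the sources used here. The gene length of 9 of 9 members matched the exon union of GENCODE M21.

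Counts were analysed in R 4.3.3 with edgeR 4.0.16 (TMM factors, filterByExpr on age with minimum counts of 10 and 15, robust glmQLFit, glmQLFTest of the age term, with sex as a covariate). P values were adjusted over 13129 genes by the Benjamini-Hochberg method with a threshold of 0.05. Age fold changes are middle-aged over young. Log2 CPM used a prior count of 2, and ratios added 0.5 to counts. DESeq2 1.42.0, limma 3.58.1 (voom), other filters, scalings and models, each sex alone and each library left out were alternatives. Steps were tested on simulated data. Permutation tests of age were exact and 2-sided, and those of correlations used 100000 resamples.

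All 9 members were named, and from each gene list those with an unadjusted p under 0.05 or else the 2 most abundant per length, with the 3 genes most correlated with each member. The members, lists and tests were chosen with earlier results of these data known. The study describes the libraries as independent biological replicates, without saying how many animals each holds. Floors cover counting error only. The Fn1 result was named after its values were seen.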

Additional observations from a re-analysis of the deposited data

Results flagged for a closer look

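The level of Itgae in young male 1 stood apart from the other young libraries. It had 0 counts (0 CPM, with a floor of 0.542 CPM), and the next lowest young library had 13.8 CPM. The gap on the log2 CPM scale was 0.821 of the range of the 6 young libraries, above the critical value of 0.625.

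Cd44 was also low in the same library, at 42.3 CPM (234 counts), against 108 CPM in the next lowest young library, with a gap of 0.789 of the range. Young male 1 had the lowest total count of the 11, 6135736. Of the 18 sets of values examined in this way (9 genes in each age group), 2 stood apart, and chance alone flags about 1 in 20.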

How the results depend on the processing

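The direction of Itgb1, Itga1, Itga4, Itga2 and Cd44 held under every alternative that gave a value. Itgae reversed with the gene length slope and a replicate block together (0.11) and in males alone (0.56). For Itgal, Itgb2 and Itgb7, whose log2 fold changes lay near 0, the sign reversed in the 9 libraries over 10000000 counts (-0.24, -0.13 and -0.29) and in limma voom (-0.044, -0.015 and -0.023). It also reversed with the slope for Itgal (-0.068) and Itgb7 (-0.0080), with the slope and block for Itgb2 (-0.079), in males alone for Itgal (-0.21) and Itgb2 (-0.15) and with library size alone for Itgb7 (-0.016). Leaving out each library gave -0.15 to 0.28 for Itgal, -0.047 to 0.26 for Itgb2 and -0.14 to 0.16 for Itgb7. The ratio of Itgae to Itga4 reversed in females alone (-1.09), and that of Itgal to Itgb2 without middle-aged female 1 (leave-one-out range -0.28 to 0.063). The ratio of Itgb7 to Itgb1 was between -1.05 and -0.78 with each library left out (exact permutation p = 0.00476 to 0.0190).

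Against 3 genes called by age, DESeq2 called 112, limma voom 136, the slope 45 (of the members, 1, Itgb1), the slope with block 0, a minimum of 1 count 17, 10 counts in every library 5, libraries over 10000000 counts 6, no sex term 5, males alone 0 and females alone 0, and leaving out a library 1 to 4. In DESeq2, 1 gene of the ligand list was called. Itgae and Itga1 could not be fitted with 10 counts in every library. The cause of these changes was not tested. With age group means removed, r was 0.79 for Itga1 and Itgb1, 0.68 for Itga2 and Itgb1 and 0.81 for Itga4 and Itgb1. With number means removed it was -0.35 for Itga2 and Itgb1, -0.27 for Itga4 and Itgb1, -0.20 for Itga4 and Itgb7 and 0.22 for Itgal and Itgb2.

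The labels give the ages the same replicate numbers without saying what they share. Deviations from the group means correlated between ages at 0.32 and 0.18 for male numbers 1 and 2 and at 0.43, 0.03 and 0.39 for female numbers 1 to 3, and 2 of these 5 pairs matched another number better, so the numbers were not taken as pairs. A replicate block within sex called 2 genes and a shared block 19. In these, edgeR gave Itgb1 an adjusted p of 0.0836 and 0.0617.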
